A study of Mus musculus with 5 samples.

Results

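Lymphocyte transcripts were followed in cells sorted from the adult mouse pancreas, through 36 genes that mark T cells, natural killer (NK) and other cytotoxic cells, B cells and plasma cells. The 36 genes were chosen by name, with no minimum level: 14 T cell genes, 10 NK and cytotoxic genes, 6 B cell genes, 4 plasma cell genes and 2 surface genes shared by most lymphocytes. Of these, 35 were found by symbol in at least 1 deposited table and 34 in every table, among 16992 symbols common to all tables. Mzb1 was not found by that symbol, and Gzma was missing from 1 table.

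RNA was sequenced in 5 libraries. The cells came fresh from sorts of C57BL/6 pancreas, taken from mice aged 2 to 4 months. There were 2 libraries of CD133(positive)CD71(negative) cells and 3 libraries of CD133(high)CD71(low) cells, a group whose marker label calls it positive for CD71. The sort used CD133, the product of Prom1, and CD71, the transferrin receptor made from Tfrc. The labels name no genetic alteration and no treatment, and they do not say how many animals were used or whether a leukocyte marker was part of the sort.

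T cells recognise antigen through a receptor that signals by way of the CD3 chains, and the CD4 and CD8 coreceptors divide them into helper and cytotoxic classes. NK cells kill target cells by releasing perforin and granzymes and carry receptors of the killer cell lectin-like family. B cells signal through the CD79 chains of their antigen receptor, and plasma cells, which descend from them, secrete antibody. All of these cells can be found in pancreatic tissue, where they are a minority population, and in the lymph nodes that adjoin it.

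Depth, as recovered from the step between low values, was 25.4 and 19.7 M reads (M, 1e6) in CD133(positive)CD71(negative) libraries and 30.8 to 41.9 M in CD133(high)CD71(low) libraries. Prom1 was at 45.8 and 48.8 RPKM against 72.8, 74.7 and 133, and Tfrc at 4.00 and 4.36 against 5.34, 6.84 and 12.2. Both followed the order of the labels, but neither passed the test used here (limma adjusted p = 0.109 and 0.192). Acinar transcripts took 59.7% to 63.0% of the summed values in the first group and 41.8% to 55.8% in the second. The unnumbered CD133(high)CD71(low) library, called library 3, was deposited with other gene models, and its Pearson correlation with libraries 1 and 2 was 0.957 and 0.961 over genes, where that between libraries 1 and 2 was 0.996. Nothing in the labels says that the libraries came from separate animals or sorts, so the p-values measure only the spread between libraries, which may be technical. In a bulk library, fewer cells of a type and less RNA per cell cannot be told apart.

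Transcripts of all of these lineages were detected in CD133(positive)CD71(negative) cells, and 24 of the 34 genes tested were lower in CD133(high)CD71(low) cells. Levels are given in RPKM, reads divided by transcript length in kilobases and by library depth. Of the 34 genes, 13 had a mean of at least 1 RPKM in CD133(positive)CD71(negative) cells, 18 lay between 0.1 and 1, and 3 lay under 0.1. In CD133(high)CD71(low) cells the same counts were 4, 14 and 16. These are low levels beside those of other genes. Of all genes tested, 69.9% had a mean of at least 1 in the first group and 67.8% in the second, and 87.1% and 83.4% had a mean of at least 0.1.

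Transcripts of Igj, an antibody component, and of the broad surface gene Cd52 made up most of the lymphocyte signal in CD133(positive)CD71(negative) cells. The 34 genes summed to 194 and 164 RPKM in CD133(positive)CD71(negative) libraries and to 14.9, 12.4 and 12.1 in CD133(high)CD71(low) libraries. Igj alone contributed 57.2% and 51.8% of that sum in the first group, and 8.89%, 12.1% and 29.95% in the second. Without Igj and Cd52 the sums were 34.2 and 34.4 RPKM against 10.3, 8.63 and 6.81, and the groups again did not overlap.

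**Figure D1:**
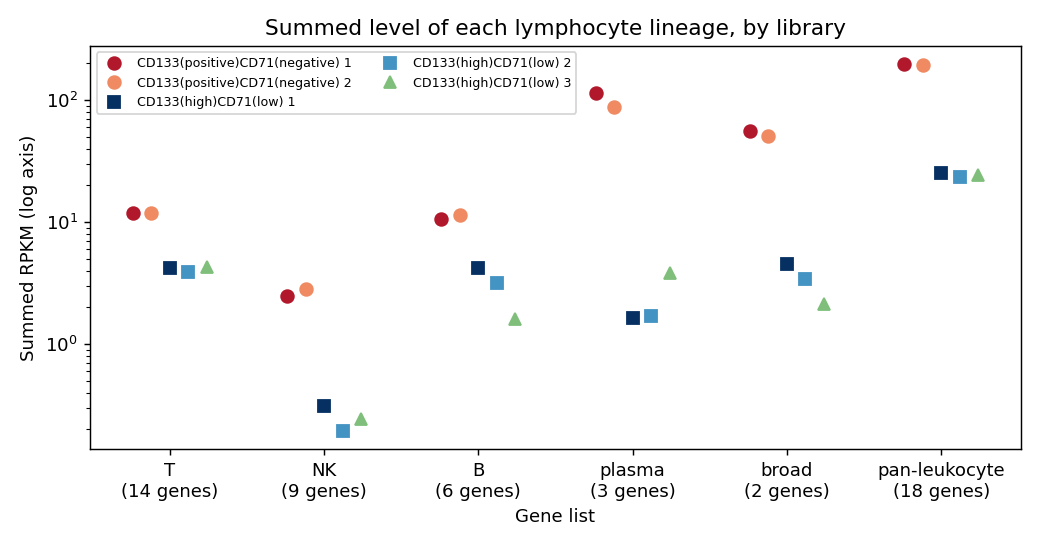
Summed RPKM (log axis) of the genes of each lymphocyte lineage and of the pan-leukocyte genes, with 1 symbol per library. In each list shown, both CD133(positive)CD71(negative) libraries lie above the 3 CD133(high)CD71(low) libraries, from a 2.88-fold ratio of means for the T cell genes to a 42.2-fold ratio for the plasma cell genes.

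Summed by lineage, the ratio was smallest for T cell genes and largest for plasma cell genes, whose sum was mostly Igj. The T cell genes summed to 11.9 and 11.9 RPKM against 4.21, 3.87 and 4.31, a 2.88-fold ratio of means, and the B cell genes to 10.6 and 11.5 against 4.21, 3.18 and 1.62, a 3.67-fold ratio. The NK and cytotoxic genes summed to 2.49 and 2.81 RPKM against 0.308, 0.195 and 0.244, a 10.7-fold ratio. The 2 broad surface genes differed 15.9-fold and the plasma cell genes 42.2-fold. Library 3 was the lowest of its group for the B cell sum and the highest for the plasma cell sum.

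Each gene was then tested across the whole table with limma on log2(RPKM + 1), where a negative fold change means lower in CD133(high)CD71(low). Over all 16887 genes tested, 10.2% were lower and 5.67% were higher, and the median log2 fold change was 0.18. Against this background 24 of the 34 lymphocyte genes were lower by limma and 0 were higher, with a median of -0.49. At an unadjusted p under 0.05, limma gave 27 lower and 0 higher. In 29 of the 34 genes every CD133(high)CD71(low) library lay below both CD133(positive)CD71(negative) libraries, against 18.0% of all genes tested. The reverse order, seen in 44.5% of all genes tested, occurred in 0 of the 34. The 5 genes whose groups overlapped were Cd3d, Cd247, Lck, Gzmb and Prf1.

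The count of lower genes, 24 with all libraries, ranged from 15 to 27 when single libraries were left out. It was smallest without CD133(high)CD71(low) library 2, where 15 remained lower (5.25% of all genes) and Cd3e, Zap70, Cd28, Cd2, Thy1, Klrb1c, Cd79a, Cd79b and Cd22 no longer passed. It was largest without library 3, where all 24 remained and the total was 27 (13.0% of all genes). The genes that passed under every library left out were Cd4, Cd8a, Cd5, Il7r, Nkg7, Klrd1, Il2rb, Tbx21, Ms4a1, Igj, Pou2af1, Tnfrsf17 and Cd52, which is 13 of the 24. Of these 13, Cd5 did not pass under quantile normalization (limma adjusted p = 0.0519), and the other 12 also passed under every scaling tried and with a pseudocount of 0.1. Quantile normalization also ended the calls of Cd3e, Zap70, Cd28, Klrb1c, Blk and Cd22, and that pseudocount those of Thy1, Cd79b, Blk and Cd22.

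**Figure D2:**
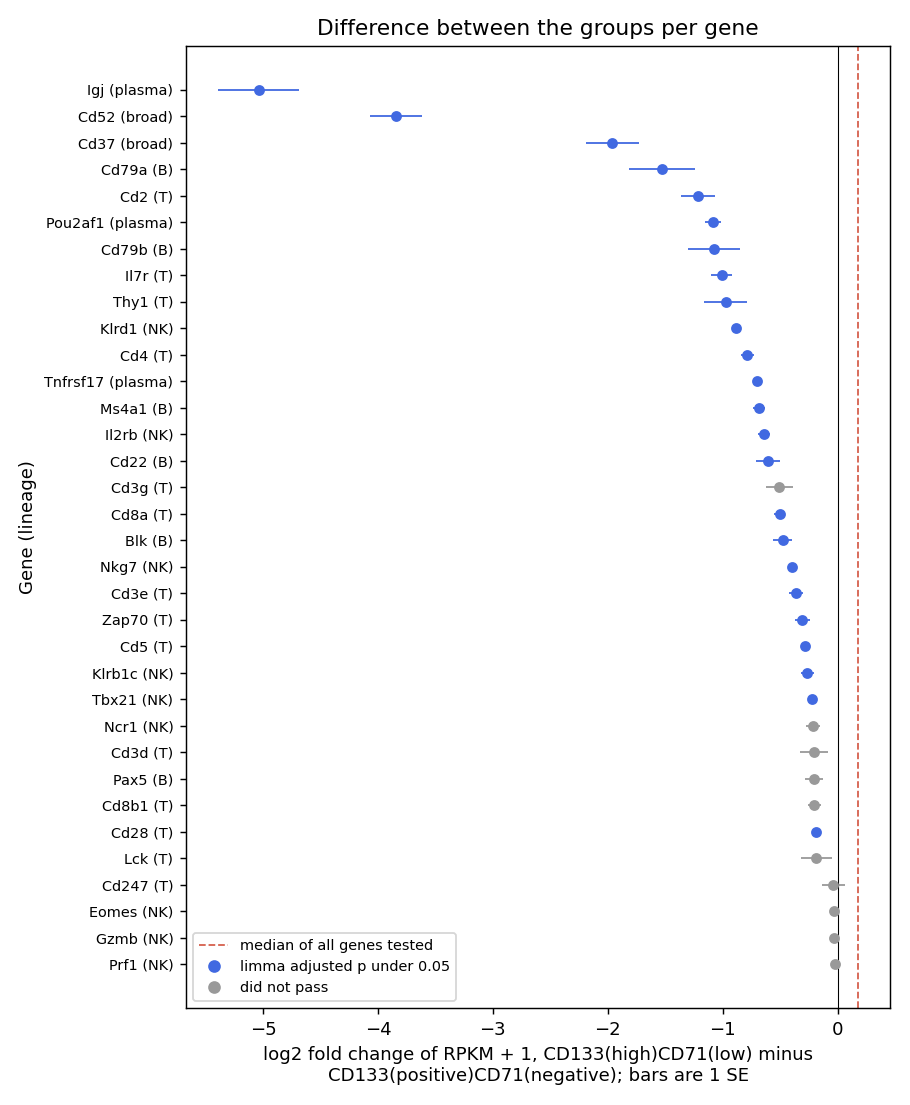
Difference between the groups for each of the 34 genes on the log2(RPKM + 1) scale, with bars of 1 SE. Blue points passed the limma threshold of 0.05, grey points did not, and the dashed line is the median of all genes tested (0.18). All 34 points lie left of 0, from -5.04 for Igj to -0.03 for Prf1 and Gzmb (Cd247 and Prf1 change sign under some alternatives), and the 24 blue points include those of all the plasma cell and broad surface genes tested.

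The start regions of 4 genes, 1 per lineage, are shown because these lineages differ in the factors known to act on them. Octamer-binding proteins, with the coactivator encoded by Pou2af1, and EBF act in B cells, and E proteins bind E-boxes in both B and T cells. The RefSeq windows (build GRCm38.p6) run from 250 bases before to 50 bases after a transcript start and are written 5′ to 3′ on the gene's strand. Capitals mark the E-box CAGGTG or its reverse complement CACCTG. Igj, now named Jchain, lies at chr5:88527848-88528147 on the minus strand. Cd79a lies at chr7:24897247-24897546 on the plus strand, Cd3e at chr9:45009562-45009861 on the minus strand and Nkg7 at chr7:43436888-43437187 on the plus strand.
Igj: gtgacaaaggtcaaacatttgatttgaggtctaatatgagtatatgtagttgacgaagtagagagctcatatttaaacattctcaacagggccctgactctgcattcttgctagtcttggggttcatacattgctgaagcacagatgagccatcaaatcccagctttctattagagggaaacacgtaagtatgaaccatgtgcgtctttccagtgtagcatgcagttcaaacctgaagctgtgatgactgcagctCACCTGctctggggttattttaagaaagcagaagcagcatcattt
Cd79a: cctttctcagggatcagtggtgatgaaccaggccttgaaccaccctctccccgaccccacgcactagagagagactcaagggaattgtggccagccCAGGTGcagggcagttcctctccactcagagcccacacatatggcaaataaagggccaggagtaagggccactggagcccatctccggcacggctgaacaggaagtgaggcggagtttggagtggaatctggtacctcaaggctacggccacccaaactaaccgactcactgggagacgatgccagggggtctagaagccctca
Cd3e: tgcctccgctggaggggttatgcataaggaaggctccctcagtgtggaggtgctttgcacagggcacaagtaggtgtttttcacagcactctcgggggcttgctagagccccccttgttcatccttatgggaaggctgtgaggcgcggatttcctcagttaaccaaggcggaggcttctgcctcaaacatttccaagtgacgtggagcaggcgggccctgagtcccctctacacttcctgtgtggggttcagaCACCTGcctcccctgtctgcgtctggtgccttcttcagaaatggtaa
Nkg7: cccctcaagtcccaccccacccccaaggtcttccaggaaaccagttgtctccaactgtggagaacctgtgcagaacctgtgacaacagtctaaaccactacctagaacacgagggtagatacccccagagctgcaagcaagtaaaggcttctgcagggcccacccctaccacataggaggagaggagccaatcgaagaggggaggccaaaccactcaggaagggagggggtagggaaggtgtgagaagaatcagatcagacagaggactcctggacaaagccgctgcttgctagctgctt

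The first 3 of these windows each hold an E-box and the Nkg7 window holds none. Windows were found for 24 of the lymphocyte genes, 28 windows in all, and each was searched on both strands for 3 motifs. The E-box occurred in 16 of the 28 windows (57.1%), against 20.2% of the 32851 windows of the RefSeq table. The genes with it were Cd22, Cd247, Cd37, Cd3d, Cd3e, Cd3g, Cd5, Cd79a, Gzma, Igj, Lck, Prf1, Tbx21 and Zap70. The octamer ATGCAAAT occurred in 0 of the 28 windows, against 1.74% of all windows, and the palindromic EBF consensus occurred in 1, that of Cd22, against 0.904% of all windows. These matches describe the letters in the windows only. E-boxes occurred in genes that passed limma and also in Cd247, Lck, Cd3d, Cd3g and Prf1, which did not.

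Plasma cell genes showed the widest difference in summed level, and 3 of the 3 tested were lower in CD133(high)CD71(low) cells. Igj made up most of the plasma cell sum, and the log2 difference of that sum, -5.40, was -3.27 without Igj. That is smaller in size than the differences of the full NK sum (-3.41) and the full broad surface sum (-3.99). With their own highest genes left out, the NK and broad surface differences were -2.98 and -2.77, smaller in size than -3.27. Igj encodes the joining chain that links antibody units into polymers for secretion. Its level was 111 and 85.1 RPKM in CD133(positive)CD71(negative) libraries against 1.32, 1.49 and 3.63 in CD133(high)CD71(low) libraries. The 2 groups lay far apart, and library 3 was the highest of the second group. The means were 98.1 ± 18.4 (SD, n = 2) and 2.15 ± 1.28 (SD, n = 3), a 45.7-fold ratio, and the log2 fold change was -5.04 (SE 0.35, adjusted p by limma = 0.00198). At the depths recovered, these levels correspond to 3930 and 2340 reads against 58.8, 64.0 and 211 reads.

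Tnfrsf17 encodes BCMA, a survival receptor of plasma cells. It was at 0.628 and 0.621 RPKM in CD133(positive)CD71(negative) libraries, about 13.0 and 9.99 reads, and was listed at 0 in all 3 CD133(high)CD71(low) libraries (limma adjusted p = 0.000482). No fold is given against a group listed at 0. Pou2af1, the B cell coactivator OCA-B, was at 1.68 and 1.53 RPKM against 0.304, 0.215 and 0.177, with no overlap (log2 fold change -1.08, SE 0.068, adjusted p by limma = 0.00139). It is expressed in B cells as well as plasma cells.

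Of 12 other plasma cell genes tested, 4 were lower and 0 higher by limma (4 lower and 1 higher at an unadjusted p under 0.05), with a median log2 fold change of -0.24. Slamf7, a surface receptor of plasma and NK cells, was at 3.04 and 3.35 RPKM against 0.0393, 0.0814 and 0.0882. Irf4, a transcription factor of plasma cells and activated lymphocytes, was at 1.65 and 1.51 RPKM against 0.113, 0.0968 and 0.101. Neither pair of groups overlapped, and limma gave an adjusted p of 0.000482 for both Slamf7 and Irf4. Neither gene is specific to plasma cells, and the part of other cells in their levels was not tested. The other genes that passed were Prdm1 and Tnfrsf13b. Xbp1, which drives secretory capacity in plasma cells and also in acinar cells, did not pass, at 102 and 94.6 RPKM against 99.7, 99.9 and 107. Sdc1 lay the other way without overlap, at 13.3 and 15.9 RPKM against 18.9, 18.0 and 21.0, and did not pass (limma adjusted p = 0.104). Derl3, Fcrl5, Edem1, Sec11c, Creld2 and Pim2 did not pass either.

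B cell genes were lower by a narrow range of ratios, and 5 of 6 passed limma. Cd79a and Cd79b encode the signalling chains of the B cell receptor. Cd79a was at 4.82 and 5.47 RPKM in CD133(positive)CD71(negative) libraries against 1.95, 1.03 and 0.606 in CD133(high)CD71(low) libraries (log2 fold change -1.53, SE 0.29, adjusted p by limma = 0.0304). Cd79b was at 2.72 and 2.78 RPKM against 1.12, 0.973 and 0.339 (log2 fold change -1.08, SE 0.23, adjusted p by limma = 0.041). Library 1 was the highest of the second group for both genes and library 3 the lowest. Neither gene passed without CD133(high)CD71(low) library 2 or without either CD133(positive)CD71(negative) library, and Cd79b also failed without CD133(high)CD71(low) library 1.

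Ms4a1 encodes CD20, a membrane protein of mature B cells. It was at 1.22 and 1.23 RPKM against 0.365, 0.441 and 0.348, with little spread inside either group (log2 fold change -0.68, SE 0.055, adjusted p by limma = 0.00293). Cd22, an inhibitory coreceptor, was at 1.05 and 1.00 RPKM against 0.481, 0.348 and 0.187 (log2 fold change -0.60, limma adjusted p = 0.0246). Blk, a kinase of B cell receptor signalling, was at 0.555 and 0.631 RPKM against 0.164, 0.236 and 0.0385 (limma adjusted p = 0.0249). Pax5, the transcription factor that maintains B cell identity, was at 0.195 and 0.417 RPKM against 0.129, 0.161 and 0.0990. Its groups did not overlap but it did not pass limma (adjusted p = 0.148). Cd22 no longer passed without CD133(high)CD71(low) library 2, Blk without library 1 of that group, and both without either CD133(positive)CD71(negative) library.

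The 6 ratios of mean levels among the B cell genes, CD133(positive)CD71(negative) over CD133(high)CD71(low), lay between 2.36 and 4.30 with a median of 3.28. Of 18 other B cell genes tested, 11 were lower and 0 higher by limma (16 lower and 1 higher at an unadjusted p under 0.05), with a median log2 fold change of -0.65. Btk, a kinase that B cells share with myeloid cells, was at 1.39 and 1.45 RPKM against 0.0739, 0.0511 and 0.0627 (limma adjusted p = 0.000482). Cd180, a surface protein of B cells, macrophages and dendritic cells, was at 3.30 and 3.40 RPKM against 0.188, 0.181 and 0.310 (limma adjusted p = 0.000580). Both are therefore not specific to B cells.

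**Figure D3:**
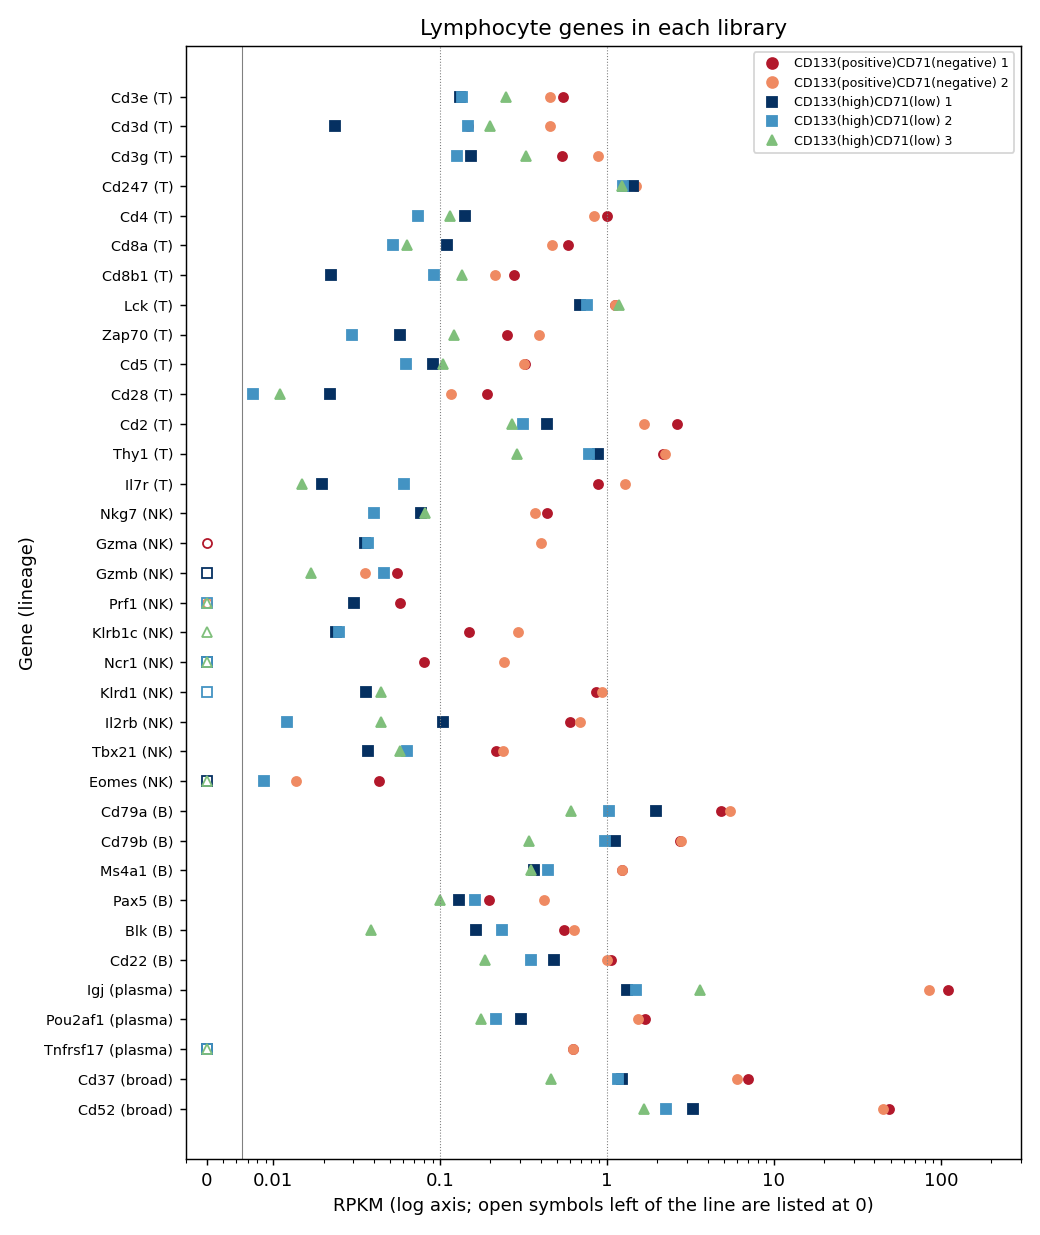
RPKM (log axis) of each of 35 lymphocyte genes in each library, with values listed at 0 drawn as open symbols left of the line and dotted lines at 0.1 and 1 RPKM. Igj and Cd52 lie far above the other genes in CD133(positive)CD71(negative) libraries, Cd247 shows no separation of the groups, and Tnfrsf17 and Ncr1 are listed at 0 in all 3 CD133(high)CD71(low) libraries.

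Cd52 and Cd37, the broad surface genes, were both lower. Cd52 encodes a small anchored glycoprotein of lymphocytes and also of some myeloid cells. It was at 48.9 and 44.8 RPKM in CD133(positive)CD71(negative) libraries against 3.29, 2.25 and 1.67 in CD133(high)CD71(low) libraries, a 19.5-fold ratio of means (log2 fold change -3.84, SE 0.23, adjusted p by limma = 0.00115). Cd37, a tetraspanin most abundant on B cells, was at 6.94 and 6.00 RPKM against 1.22, 1.16 and 0.463, a 6.82-fold ratio (log2 fold change -1.96, SE 0.23, adjusted p by limma = 0.00904). The groups did not overlap for either gene. Cd37 did not pass when either CD133(positive)CD71(negative) library was left out.

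T cell genes were lower in 9 of 14 cases, by amounts that differed widely from gene to gene. The CD3 chains, which define T cells, were low in both groups. Cd3e was at 0.546 and 0.456 RPKM in CD133(positive)CD71(negative) libraries against 0.131, 0.135 and 0.249 in CD133(high)CD71(low) libraries, about 20.3 and 13.2 reads against 6.09, 6.09 and 15.2 (log2 fold change -0.36, SE 0.061, adjusted p by limma = 0.0237). It is the only CD3 chain of the 3 that passed, and it did not pass without CD133(high)CD71(low) library 1 or 2 or without either CD133(positive)CD71(negative) library. Cd3g was at 0.537 and 0.887 RPKM against 0.153, 0.127 and 0.325 (limma adjusted p = 0.0544), and its groups did not overlap. Cd3d was at 0.147 and 0.455 RPKM against 0.0235, 0.146 and 0.198 (limma adjusted p = 0.291), and its groups overlapped. Without library 3, Cd3g passed limma, with an adjusted p of 0.0258.

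The coreceptor transcripts were lower by larger ratios. Cd4 was at 1.00 and 0.831 RPKM against 0.141, 0.0733 and 0.115, an 8.33-fold ratio of means (log2 fold change -0.79, SE 0.056, adjusted p by limma = 0.00203). Cd8a was at 0.580 and 0.470 RPKM against 0.110, 0.0521 and 0.0636, a 6.96-fold ratio (limma adjusted p = 0.0044). Both are also expressed by subsets of dendritic cells in mice. Cd8b1, the partner chain that is more restricted to T cells, was at 0.277 and 0.214 RPKM against 0.0221, 0.0915 and 0.135. That is a 2.97-fold ratio without overlap, which did not pass (limma adjusted p = 0.0715). Without library 3 Cd8b1 passed, with a limma adjusted p of 0.0316.

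Il7r, the interleukin 7 receptor chain that sustains resting T cells and innate lymphoid cells, showed the highest ratio of the T cell genes. It was at 0.880 and 1.29 RPKM against 0.0195, 0.0605 and 0.0149, a 34.3-fold ratio of means (log2 fold change -1.01, SE 0.091, adjusted p by limma = 0.00428). Cd2, an adhesion receptor of T and NK cells, was at 2.61 and 1.67 RPKM against 0.437, 0.311 and 0.270 (log2 fold change -1.22, SE 0.15, adjusted p by limma = 0.0102). Thy1, a surface protein of T cells that stromal and neural cells also carry, was at 2.17 and 2.24 RPKM against 0.882, 0.784 and 0.289 (log2 fold change -0.98, SE 0.19, adjusted p by limma = 0.0333). For these 3 genes no library of one group reached the range of the other. Cd2 did not pass without CD133(high)CD71(low) library 2, and Thy1 did not pass without any 1 of the libraries other than library 3.

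Cd247 and Lck were the T cell genes with the least difference. Cd247 encodes the zeta chain of the T cell receptor complex, which NK cells also use. It was at 1.24 and 1.48 RPKM against 1.44, 1.24 and 1.23, so that the groups overlapped throughout (log2 fold change -0.04, SE 0.099, adjusted p by limma = 0.797). Its direction was 0.11 under quantile normalization and 0.04 without CD133(positive)CD71(negative) library 2. Lck, the kinase that starts T cell receptor signalling, was at 1.11 and 1.12 RPKM against 0.687, 0.754 and 1.19, with library 3 above both libraries of the other group (limma adjusted p = 0.36). Without library 3 Lck passed as lower (log2 fold change -0.30, limma adjusted p = 0.0248). In all 3 CD133(high)CD71(low) libraries both genes were above the 3 CD3 chains, and Thy1 was above Lck in libraries 1 and 2.

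Zap70, Cd5 and Cd28, which act in signalling and costimulation downstream of or beside the T cell receptor, stayed under 0.5 RPKM in every library. Zap70 was at 0.252 and 0.393 RPKM against 0.0573, 0.0297 and 0.120 (limma adjusted p = 0.038). Cd5 was at 0.322 and 0.317 RPKM against 0.0906, 0.0626 and 0.104 (limma adjusted p = 0.00502). Cd28 was at 0.191 and 0.117 RPKM against 0.0217, 0.0075 and 0.0110 (limma adjusted p = 0.0261). All 3 were lower without overlap, and their fold changes on the log2(RPKM + 1) scale are small because that scale compresses values under 1. Cd28 did not pass without CD133(high)CD71(low) library 1 or 2, and Zap70 not without any 1 of the libraries other than library 3.

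Of 25 other T cell genes tested, 12 were lower and 0 higher by limma (15 lower and 0 higher at an unadjusted p under 0.05), with a median log2 fold change of -0.14. Lcp2, the adaptor SLP-76 of T cells and myeloid cells, was at 2.03 and 2.06 RPKM against 0.0840, 0.0967 and 0.175 (limma adjusted p = 0.000490). Ccr7, a homing receptor of naive T cells and of migrating dendritic cells, was at 3.83 and 3.09 RPKM against 0.206, 0.262 and 0.241 (limma adjusted p = 0.000884). Both are used by cells outside the T lineage.

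NK and cytotoxic genes were low in both groups. In CD133(positive)CD71(negative) cells 6 of the 9 tested had a mean between 0.1 and 1 RPKM and none reached 1, and in CD133(high)CD71(low) cells all 9 lay under 0.1. By limma 5 of the 9 were lower and 0 higher (6 lower and 0 higher at an unadjusted p under 0.05). Klrd1, which encodes the CD94 chain of an NK receptor, was at 0.860 and 0.931 RPKM against 0.0361, 0 and 0.0442 (log2 fold change -0.88, SE 0.037, adjusted p by limma = 0.000526). Il2rb, the beta chain of the interleukin 2 and 15 receptors, was at 0.596 and 0.692 RPKM against 0.104, 0.0120 and 0.0443 (log2 fold change -0.64, SE 0.052, adjusted p by limma = 0.00295). In CD133(positive)CD71(negative) cells these levels stood for 19.6 and 16.5 reads of Klrd1 and 63.5 and 57.3 reads of Il2rb. Both pairs of groups stood well apart, and both genes passed under every library left out.

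Nkg7, a granule membrane protein of cytotoxic cells, was at 0.434 and 0.372 RPKM against 0.0769, 0.0398 and 0.0815 (limma adjusted p = 0.00371). Tbx21, the transcription factor T-bet, was at 0.215 and 0.237 RPKM against 0.0367, 0.0635 and 0.0575 (limma adjusted p = 0.00684). Klrb1c, which encodes the receptor NK1.1, was at 0.149 and 0.292 RPKM against 0.0238, 0.0247 and 0 (limma adjusted p = 0.0398). None of these 3 overlapped between groups, and Klrb1c did not pass without CD133(high)CD71(low) library 1 or 2. Ncr1, the activating receptor NKp46 that is restricted to NK and related innate cells, was at 0.0804 and 0.241 RPKM, about 2.99 and 6.97 reads. It was listed at 0 in all 3 CD133(high)CD71(low) libraries and did not pass (limma adjusted p = 0.0865).

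The killing machinery itself was barely seen. Prf1, perforin, was at 0.0573 and 0 RPKM against 0.0304, 0 and 0, and Gzmb, granzyme B, was at 0.0554 and 0.0356 RPKM against 0, 0.0457 and 0.0168. Gzmb corresponds to 2.02 and 1.01 reads against 0, 2.02 and 1.01. Gzma, granzyme A, was at 0 and 0.402 RPKM against 0.0356 and 0.0369 in libraries 1 and 2, so a single library held nearly all of it. Eomes, a transcription factor of NK and memory T cells, was at 0.0427 and 0.0137 RPKM against 0, 0.00881 and 0. At these read numbers no difference was detectable for Prf1, Gzmb or Eomes (limma adjusted p = 0.566, 0.375 and 0.256).

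Of 15 other NK and innate lymphoid genes tested, 8 were lower and 1 was higher. Klrk1, the activating receptor NKG2D, was at 0.951 and 0.857 RPKM against 0.00984, 0 and 0 (limma adjusted p = 0.000482). Il2ra, the interleukin 2 receptor alpha chain of regulatory T cells and innate lymphoid cells, was at 0.522 and 0.512 RPKM against 0.0494, 0.0512 and 0.0271 (limma adjusted p = 0.000621). The gene that was higher, Il18r1, a chain of the interleukin 18 receptor, was at 0.869 and 1.12 RPKM against 1.85, 1.86 and 1.90 (log2 fold change 0.53, limma adjusted p = 0.0315). Il18r1 was thus the exception among the lymphoid genes of these lists, with no overlap between groups.

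Read numbers limited what could be seen in the second group. For 27 of the genes a transcript length was available, and the level could be restated as reads at the recovered depth. The median gene had 21.1 and 17.9 reads in CD133(positive)CD71(negative) libraries against 5.97, 6.09 and 11.3 in CD133(high)CD71(low) libraries. Fewer than 3 reads stood behind 2 and 2 of the 27 genes in the first group and behind 10, 9 and 7 in the second. Of the 7 NK and cytotoxic genes with a length, 6, 6 and 4 had fewer than 3 reads in CD133(high)CD71(low) libraries 1, 2 and 3.

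The lymphocyte genes were next set beside 18 pan-leukocyte genes, such as Laptm5 and Cd53, which most white blood cells express. These summed to 197 and 195 RPKM in CD133(positive)CD71(negative) libraries and to 25.3, 23.3 and 24.1 in CD133(high)CD71(low) libraries, and 17 of 18 were lower by limma. As a percentage of that sum, the T cell genes came to 6.04% and 6.13% against 16.6%, 16.6% and 17.9%, and the B cell genes to 5.37% and 5.91% against 16.6%, 13.7% and 6.70%. The T and B cell sums thus took a higher share in every CD133(high)CD71(low) library. The plasma cell genes came to 57.7% and 44.8% against 6.42%, 7.34% and 15.8%, and the broad surface genes to 28.4% and 26.1% against 17.8%, 14.7% and 8.85%. The NK and cytotoxic genes came to 1.27% and 1.44% against 1.22%, 0.835% and 1.01%.

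Each of these comparisons gave p = 0.2 in an exact two-sided permutation test, the smallest that 2 libraries against 3 allow, and 0.2 after Benjamini-Hochberg adjustment over 7 comparisons. A single gene weighed heavily on the reference: Ptpn6, a phosphatase that epithelia also express, made up 8.35% and 8.75% of the pan-leukocyte sum in the first group and 45.7%, 46.2% and 58.7% in the second. Without Ptpn6 the T cell share was 6.59% and 6.71% against 30.6%, 30.9% and 43.3%, and the B cell share 5.86% and 6.48% against 30.7%, 25.4% and 16.2%. The NK and cytotoxic share then turned to the other direction, 1.38% and 1.58% against 2.24%, 1.55% and 2.45%, with overlap (exact permutation p = 0.4). The broad surface share was then 31.0% and 28.6% against 32.8%, 27.3% and 21.4%, so that its groups overlapped too (exact permutation p = 0.8), and its log2 ratio of -1.04 was -0.15. The log2 ratio of the plasma cell share, -2.49, was -1.60 without Ptpn6 alone and -0.29 without Igj alone. The lower plasma cell share thus rested mostly on Igj. With Igj and Ptpn6 both left out, Pou2af1 and Tnfrsf17 remain, at the levels given above. The pan-leukocyte sum is then 180 and 178 RPKM against 13.7, 12.5 and 9.96. On these values the plasma cell share was higher, not lower, in every CD133(high)CD71(low) library, which was not tested. The log2 ratio of the T cell share, 1.49, was 0.74 without Cd247 and Lck, and 1.63 without these and Ptpn6.

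**Figure D4:**
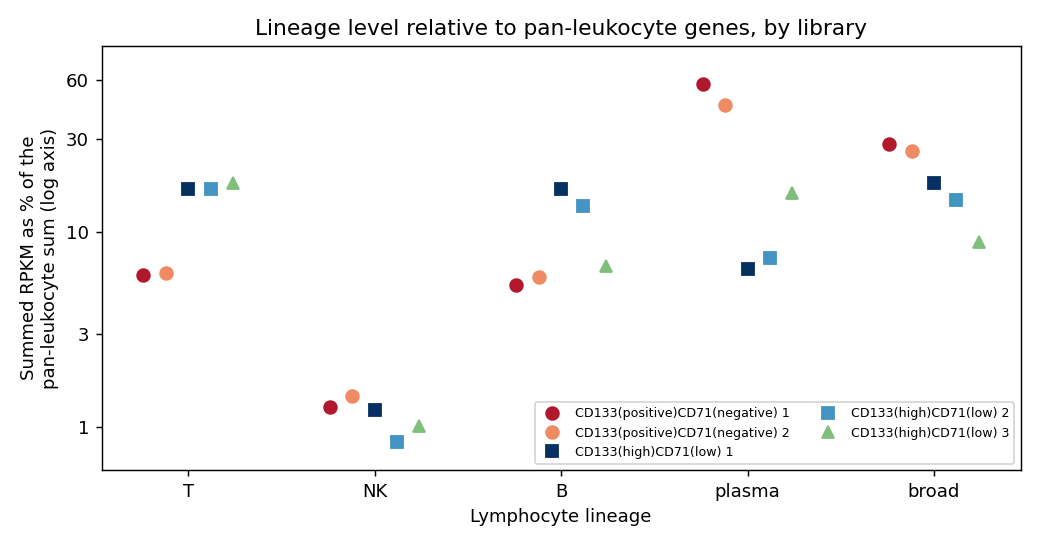
Summed RPKM of each lymphocyte lineage as a percentage of the pan-leukocyte sum (log axis), with 1 symbol per library. The T and B cell shares are higher in all 3 CD133(high)CD71(low) libraries, while the plasma cell and broad surface shares are lower with Ptpn6 in the sum, and the NK and cytotoxic share lies between 0.835% and 1.44%. Without Ptpn6 the broad surface and the NK and cytotoxic shares overlap between groups.

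Gene by gene, the ratio of means, CD133(positive)CD71(negative) over CD133(high)CD71(low), had a median of 3.63 over the T cell genes (1.05 to 34.3) and of 7.85 over the 8 NK and cytotoxic genes with a value in both groups (2.18 to 33.5). Many of the NK ratios rest on few reads. Klrd1, with the highest, had 1.03, 0 and 1.66 reads in CD133(high)CD71(low) libraries. The 6 B cell genes and 3 CD3 chains together, a set that was not planned, had a median of 3.18 (2.36 to 4.30). The T cell genes left out of that set ran from 1.05 (Cd247) to 34.3 (Il7r), with Cd28 at 11.5. Over the pan-leukocyte genes the median was 15.2 (1.37 to 47.0). Over 17 macrophage and monocyte genes it was 18.2, and over 17 dendritic cell genes 23.8. The median was 0.793 over the 16735 genes tested that were above 0 in CD133(high)CD71(low) cells.

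Markers of several other cell types, though not all, moved with the lymphocyte genes. Macrophage and monocyte genes summed to 694 and 676 RPKM against 82.8, 74.9 and 61.2, with 15 of 17 lower and 1, Cd14, higher by limma. Dendritic cell genes summed to 829 and 825 RPKM against 62.9, 54.4 and 41.3, with 14 of 17 lower. Endothelial genes were lower in 13 of 14 cases, granulocyte and mast cell genes in 8 of 9 and mesenchymal genes in 7 of 14. Over all genes tested, 10.2% were lower and 5.67% higher by limma. Endocrine genes were lower in 4 of 14 cases, while erythroid genes were higher in 2 of 7 and lower in 0 by limma. None of the defining genes of macrophages and dendritic cells such as Ccr2, Emr1, Cd209a or Flt3 was at 0 in CD133(positive)CD71(negative) cells. Duct genes were higher in 10 of 14 cases by limma. Acinar genes passed limma in 0 of 35 cases, also 0 at an unadjusted p under 0.05. Even so, 25 of the 35 acinar genes were lower without overlap, against 18.0% of all genes tested, with a median log2 fold change of -0.44. Since Cd4, Cd8a, Cd2, Cd37, Cd52 and Klrd1 are also expressed by dendritic or other myeloid cells, the values above stand beside theirs, and the part of those cells was not tested.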

How the data were processed

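RNA was sequenced in 5 libraries, and the authors deposited 1 table per library with 1 value per gene symbol. The processing notes of the submitters name Partek and mm10, with neither aligner nor annotation. The unit of the deposited tables is in no label and was inferred to be RPKM. In each library, low values times transcript length clustered at whole multiples of 1 step, which FPKM would also give. Of the low values, 59.8% to 64.3% came within 0.05 reads of such a multiple (chance gives 10%), too few to rebuild counts, so no count test was run. A row of 74.2 M alignments in library 3, which names no gene, was left out. The number of libraries limits the precision, and read equivalents cover counting error only.

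Groups were taken from the sample titles. The 4 numbered libraries hold 18618 symbols each and library 3 holds 22522, and 16992 symbols common to all were used. Values were taken as log2(RPKM + 1), with a pseudocount of 1, which understates the change of low genes. The 16887 genes above 0 in at least 1 library were tested in R 4.3.3 with limma 3.58.1 (group as the sole term, mean-variance trend, Benjamini-Hochberg adjustment, threshold 0.05). No minimum mean was set. The step was tested on simulated data.

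Genes with a mean of at least 1 RPKM, or the 2 highest of a lineage if none reached it, were to be described in full, all members named or counted. From each other list up to 2 genes per direction with the smallest adjusted p were to be named. Genes named beyond that were chosen after their values were seen. The members, lists and motifs were chosen with earlier results of these data known. Library numbers were not taken as pairs (the differences between libraries 1 and 2 of each group correlated at -0.0202). Alternatives were a pseudocount of 0.1, minimum means of 1 and 5, median-of-ratios scaling, quantile normalization, removal of acinar genes, each library left out and a replicate block. Leaving out Ptpn6, or Cd247 and Lck, was added after seeing the data. The joint set of B cell genes and CD3 chains was not planned either. Sequences are from RefSeq (GRCm38.p6). Other steps ran in Python 3.11.15 with pandas 2.3.3, numpy 2.4.6 and, for figures, matplotlib 3.10.9.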

Additional observations from a re-analysis of the deposited data

Results flagged for a closer look

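The table of CD133(high)CD71(low) library 3 lists antigen receptor genes that the tables of the other 4 libraries do not list, and these signals stand outside the comparisons above. For 9 receptor constant genes, chosen after their values were seen, the level in that library was above the level that 3 reads would give. Igkc, the kappa light chain constant gene, was at 38.8 RPKM and Ighm, the constant gene of IgM, at 27.4 RPKM. Iglc2, a lambda light chain gene, was at 1.89 RPKM. The IgG genes Ighg3, Ighg2c and Ighg1 were at 0.793, 0.4005 and 0.196 RPKM. Of the T cell receptor genes, Trbc2 was at 1.52, Trac at 0.577 and Trbc1 at 0.180 RPKM. The value of 3 reads lay between 0.0480 and 0.174 RPKM for these genes and covers counting error only. The same table holds 108 variable and joining segment symbols, of which 32 were at 0.1 RPKM or more. Igkc and Ighm were thus above Igj in this library, at 3.63 RPKM. No value of the other libraries can be set beside them, so no difference between groups was tested.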

How the results depend on the processing

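Over all genes, 1729 were lower and 958 higher. Lower genes numbered 850 with a mean of at least 1, 315 with a mean of at least 5, and 885 to 2166 with a library left out. Higher genes numbered 505 with a mean of at least 5, 446 under median-of-ratios scaling, 560 without acinar genes, 17 to 3662 with a library left out and 3278 over all symbols of the 4 numbered libraries. Median-of-ratios scaling moved the median of all genes from 0.18 to 0. Of the lymphocyte genes 24 were lower, and 15 to 27 with a library left out. Minimum means of 1 and 5 left 8 and 2 of them to test, of which 7 and 2 were lower. Under quantile normalization 17 were lower, with a pseudocount of 0.1 21, and with the other scalings 25 or 26. None was higher under any alternative. With the replicate number as a block, 26 lymphocyte genes were lower and 0 higher, against 1989 lower (11.9%) and 2672 higher over all genes. The log2 difference of the T cell sum, -1.53, was -1.82 under median-of-ratios scaling, -1.90 without its highest gene and -2.27 without Cd247 and Lck. That of the NK sum, -3.41, was -3.70 under that scaling and -2.98 without its highest gene. The plasma cell sum moved from -5.40 to -3.27 without Igj and the broad sum from -3.99 to -2.77 without Cd52. Relative to the pan-leukocyte sum, the NK difference of -0.42 was 0.017 without its highest gene and 0.47 without Ptpn6, and the broad difference of -1.04 was 0.12 without Cd52. Cd247 reversed to 0.11 under quantile normalization and ranged from -0.11 to 0.038 with a library left out (0.038 without CD133(positive)CD71(negative) library 2), and Prf1 ranged from -0.066 to 0.014 (0.014 without library 1 of that group). Of 418 alternatives for single genes, 350 kept direction and call. Causes were not tested. Depth limits the NK genes in CD133(high)CD71(low) cells most.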

Other observations

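A gene listed as 2010001M09Rik, an older symbol of Mzb1 that was looked at after the current symbol was not found, encodes a chaperone of antibody assembly in B and plasma cells. It was at 7.49 and 4.84 RPKM in CD133(positive)CD71(negative) libraries against 0.897, 1.501 and 0.922 in CD133(high)CD71(low) libraries. The groups did not overlap, and the log2 fold change was -1.75 (limma adjusted p = 0.0125). Ccl5, a chemokine of cytotoxic lymphocytes and other leukocytes chosen after its values were seen, was at 22.2 and 12.2 RPKM against 0.118, 0.0610 and 0.179. Klrc1, which encodes an inhibitory partner of CD94, was listed at 0 in all 5 libraries while Klrd1 was detected. Siglech, a marker of plasmacytoid dendritic cells, was at 0.147 and 0.0421 RPKM against 0.0912, 0.0135 and 0.0674.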
